A study of Mus musculus with 8 samples.

Results

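The 39 Hox genes of the mouse were compared between c-Kit-enriched cells of scramble and of PERK-deficient B16F10 melanomas. They were the protein-coding genes of the count table whose symbol is Hoxa, Hoxb, Hoxc or Hoxd followed by a number, 39 of 55450 genes, of which 11 lie in the Hoxa cluster, 10 in Hoxb, 9 in Hoxc and 9 in Hoxd. B16F10 is a pigmented mouse melanoma line, PERK (gene Eif2ak3) is a stress kinase of the endoplasmic reticulum, and c-Kit is a receptor of blood precursors, mast cells and melanocytes. The scramble group received control B16F10 cells and the other group B16F10 cells with PERK knocked out. In both groups 150000 cells went under the skin of wild-type C57BL6 mice of 6 weeks, matched for age and sex, and tumours were taken on day 17. Hosts therefore kept PERK in both groups, and whether the knockout line is a single clone is not stated. There were 4 libraries of scramble tumours (numbers 2 to 5) and 4 of PERK-deficient tumours (numbers 1 to 4), each of its own tumour. No source says that each tumour grew in its own mouse, so p-values measure the spread between these samples. The comparison asked whether the lower level of Hoxd13 in PERK-deficient tumours extended to the genes beside it and to the other clusters.

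Hox genes encode homeodomain transcription factors that give cells their position along the body axis. They lie in clusters in the order in which they are used, from anterior genes with low numbers to posterior genes with high numbers, and genes of the same number in different clusters are paralogues. Polycomb complexes keep unused Hox genes silent, MLL complexes keep used ones active, and adult blood progenitors, skin and connective tissue each keep a Hox pattern of their own.

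The scramble libraries held 44950033 to 56697163 counts each and the PERK-deficient ones 29006949 to 47530393. Levels are given as CPM, counts scaled to a common total for library size and composition, in which 3 counts, used as a floor that covers counting error only, were worth 0.0515 to 0.1 CPM. As a check of the labels, Eif2ak3 had 48.3–59.2 CPM in the scramble libraries and 7.73–22.7 CPM in the PERK-deficient ones, and it fell by 1.97 (log2, SE 0.31, edgeR adjusted p = 0.00371). Cells were enriched on beads, and their purity was not measured. Melanocytes can carry c-Kit, so melanocyte signal does not by itself tell how pure they were. The 10 melanocyte markers summed to 24649–25210 CPM in scramble and 16355–19959 CPM in PERK-deficient libraries. The 9 blood progenitor markers summed to 68.8–87.9 CPM and 87.6–154 CPM, with Gfi1b at 0 in every library. In scramble libraries Mecom (mean 46.1 CPM) and Hlf (18.7 CPM) made up most of this sum. Their means in PERK-deficient libraries were 42.6 and 14.8 CPM, and neither passed the test. Of the 7 tested markers 3 were higher (Myb, Lmo2 and Flt3) and 0 lower, so the sum does not follow each marker. In such bulk samples fewer cells of a type and less RNA per cell cannot be told apart.

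Hoxd13 encodes the most posterior Hoxd protein, which shapes digits and the urogenital tract in the embryo. It is the gene ENSMUSG00000001819.4 on the plus strand of mm10 chr2:74668310-74671599, with 2 exons. The homeobox, the part that encodes the DNA-binding domain, is in exon 2. It is shown with those of Hoxa13, the paralogue with the same number, and Hoxd12, the next gene of the cluster, because Hoxd13 counts can be read as its own only if these sequences differ. Capitals mark bases that differ from Hoxd13, and the sequences are those of the GRCm38 (mm10) transcripts, 5′ to 3′, of chr2:74669930-74670109 (plus strand), chr6:52258928-52259107 (minus strand) and chr2:74675843-74676022 (plus strand).
Hoxd13: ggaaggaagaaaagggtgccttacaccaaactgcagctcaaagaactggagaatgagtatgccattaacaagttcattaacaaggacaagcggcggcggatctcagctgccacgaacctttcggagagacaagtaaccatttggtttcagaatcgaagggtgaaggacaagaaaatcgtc
Hoxa13: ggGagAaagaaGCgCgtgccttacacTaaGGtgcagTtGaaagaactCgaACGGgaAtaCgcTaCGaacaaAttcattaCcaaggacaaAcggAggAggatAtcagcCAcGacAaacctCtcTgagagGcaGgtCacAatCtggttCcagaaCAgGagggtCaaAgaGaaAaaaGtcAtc
Hoxd12: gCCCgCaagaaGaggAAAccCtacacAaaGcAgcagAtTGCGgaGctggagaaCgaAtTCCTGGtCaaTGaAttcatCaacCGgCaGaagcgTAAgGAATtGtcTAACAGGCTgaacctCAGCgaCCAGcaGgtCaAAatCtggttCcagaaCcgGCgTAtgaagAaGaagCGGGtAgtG
Hoxa13 shared 133 of the 180 bases (73.9%) and Hoxd12 shared 101 (56.1%). The longest stretch without a difference was 11 bases for Hoxa13 and 8 bases for Hoxd12, against reads of 105 bases. Over the whole Hoxd13 transcript no stretch of 50 bases was shared with another gene, and no other gene overlapped its exons.

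The Hoxd13 and Hoxd12 promoters are shown because one gene had counts in 7 of 8 libraries and the next had none. These are the 250 bases before the RefSeq start in GRCm38.p6, chr2:74667975-74668224 and chr2:74674763-74675012, both plus strand. Capitals mark the TATA box (TATAAA), the CCAAT box (CCAAT) and the E-box (CACGTG) on either strand. In Hoxd13 the run of 8 capitals is TATAAA read on both strands with an overlap.
Hoxd13 promoter: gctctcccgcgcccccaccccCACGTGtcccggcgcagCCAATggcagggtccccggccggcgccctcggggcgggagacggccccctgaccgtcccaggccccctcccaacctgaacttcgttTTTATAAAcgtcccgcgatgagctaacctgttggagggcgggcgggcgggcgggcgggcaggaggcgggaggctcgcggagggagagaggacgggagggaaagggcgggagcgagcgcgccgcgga
Hoxd12 promoter: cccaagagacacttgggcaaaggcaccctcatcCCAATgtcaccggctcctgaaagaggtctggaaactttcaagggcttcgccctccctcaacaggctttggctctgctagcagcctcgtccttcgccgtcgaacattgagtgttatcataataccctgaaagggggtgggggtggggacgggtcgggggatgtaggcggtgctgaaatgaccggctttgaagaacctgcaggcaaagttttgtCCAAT
The promoter window of 300 bases (250 before to 50 after the start) held 37 CG pairs in Hoxd13 and 13 in Hoxd12. The median was 14.5 over the 24 promoters found for 22 Hox genes, and 7 over all 32851 promoters of that length. TATAAA was in the Hoxd13 window and in 13.62% of all windows, CACGTG in the Hoxd13 window and in 7.15% of all, and CCAAT in both windows and in 37.41% of all. TGACGTCA, the cAMP response element, was in none of the Hox windows and in 1.79% of all. These matches describe letters only.

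Hoxd13 had 451, 436, 247 and 441 counts in scramble libraries 2 to 5 and 14, 0, 11 and 24 counts in PERK-deficient libraries 1 to 4. In CPM these were 8.16, 7.49, 5.35 and 8.53 against 0.469, 0, 0.255 and 0.624. Every PERK-deficient library was below every scramble library, and library 2 of the PERK-deficient group had no count. The means were 7.38 ± 1.42 CPM (SD, n = 4) and 0.337 ± 0.271 CPM (n = 4), a ratio of 21.9. Hoxd13 thus fell by 4.46 (log2, SE 0.75, 95% interval -6.09 to -2.83, edgeR adjusted p = 0.00352). The call held when each library was left out in turn (adjusted p 0.000976 to 0.0163). It was lost in a fit on 6 libraries with the replicate number as a block (adjusted p = 0.106), although the same 6 libraries without the block gave 0.0337. Hoxd13 was chosen with its fall in these libraries known, so its call and p-values describe the fall and carry no independent support.

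Hoxd13 was the only Hox gene that passed the test. Of the 39 genes, 9 had no count in any library, 9 had counts but fell below the filter on low counts, and 21 were tested, of which 1 was lower, 0 were higher and 20 did not pass. Over all 16662 tested genes 13.8% passed in either direction, 6.13% lower and 7.66% higher. At an unadjusted p under 0.05 the count of Hox genes was also 1, against 26.7% of all genes, and DESeq2 and limma-voom each called 1. Hoxd13 was also the only tested Hox gene whose groups did not overlap, where 21.3% of all tested genes did not. The median log2 change was 0.05 over the 21 tested Hox genes and -0.02 over all tested genes, with 10 Hox genes below 0 and 11 above. The signs of Hoxa3, Hoxb8 and Hoxd8, all near 0, turned with the scaling.

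**Figure D1:**
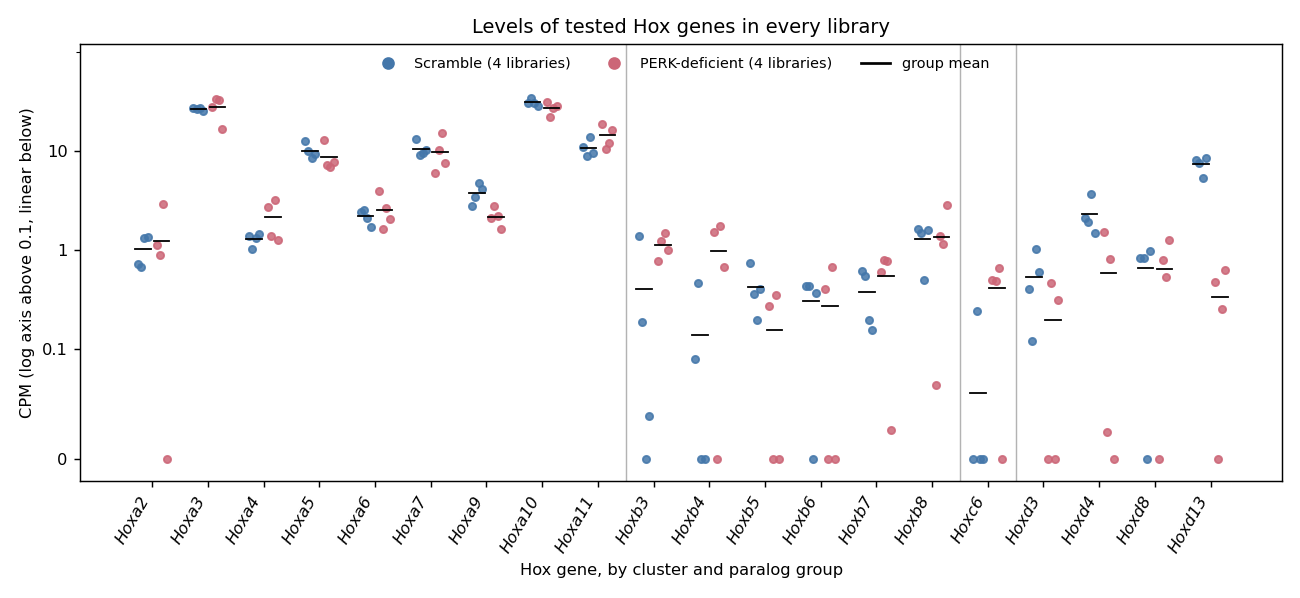
Level of 20 tested Hox genes (horizontal axis, by cluster and paralogue number) in every library, in CPM (vertical axis, logarithmic above 0.1 and linear below). Blue points are the 4 scramble and red points the 4 PERK-deficient libraries, and bars are group means. For Hoxd13 the scramble libraries lie between 5.35 and 8.53 CPM and the PERK-deficient ones between 0 and 0.624, while the groups overlap for each of the other 19 genes drawn.

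The genes next to Hoxd13 gave almost no counts in either group. Hoxd12, which starts 6.7 kb downstream, and Hoxd11, which starts 11.2 kb downstream and patterns the forearm and kidney, had no count in any library. Per kilobase of exon, Hoxd13 in scramble libraries was at least 536-fold higher than Hoxd12 and at least 891-fold higher than Hoxd11, taking 3 counts over the 4 libraries as the floor. Hoxd10 had 1 count in all. Hoxd9 had 3 counts in scramble library 5 and 27 in PERK-deficient library 2, with 0 in the other 6 libraries. Hoxd1, at the anterior end, had none. None of these 5 was tested, and for the 3 without counts a change below the floor of 3 counts a library was not detectable at this depth.

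The other 3 tested Hoxd genes are anterior or central members. Hoxd4, which helps to shape the neck vertebrae, had 2.1, 1.92, 3.64 and 1.49 CPM in scramble libraries and 1.51, 0.0244, 0.813 and 0 CPM in PERK-deficient libraries. The groups overlapped by one library, PERK-deficient library 1. The log2 difference of Hoxd4 was -1.97 (95% interval -4.49 to 0.55, edgeR adjusted p = 0.319). It was -3.02 without PERK-deficient library 1 (adjusted p = 0.159), -3.87 by limma-voom (adjusted p = 0.0759) and -5.17 under the replicate block (adjusted p = 0.233), so its size is uncertain and it passed in none of these. Hoxd3, which acts with Hoxd4 in the neck, had 0.398, 0.12, 1.02 and 0.6 CPM against 0, 0.464, 0 and 0.312 CPM, a log2 difference of -1.44 (-4.74 to 1.86, adjusted p = 0.629) that was -2.30 without PERK-deficient library 2 and -2.44 by limma-voom. Hoxd8 had 0.833, 0.824, 0 and 0.967 CPM against 0, 0.781, 0.534 and 1.27 CPM, a log2 difference of -0.02 (-3.09 to 3.06, adjusted p = 0.996). Each group held a library without Hoxd8. The intervals of Hoxd3 and Hoxd8 leave room for a 2-fold change in either direction, and that of Hoxd4 for a fall of that size.

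Hoxd3 and Hoxd4 share exons, so their separate values are uncertain. On the same strand 62.3% of the exonic bases of Hoxd3 and 52.3% of those of Hoxd4 lie in a gene model shared with each other or with a readthrough gene, and how the counting treated such reads is not given. Their summed level was 2.5, 2.04, 4.66 and 2.09 CPM in scramble libraries and 1.51, 0.488, 0.813 and 0.312 CPM in PERK-deficient libraries. These sums did not overlap. The sum of all Hoxd genes other than Hoxd13 was 3.33, 2.87, 4.68 and 3.11 CPM against 1.51, 1.93, 1.35 and 1.59 CPM, which did not overlap. This sum contains that of Hoxd3 and Hoxd4, so they are not separate observations. Hoxd3 and Hoxd4 gave on average 2.82 of its 3.5 CPM in scramble and 0.78 of its 1.59 CPM in PERK-deficient libraries. Among all single genes tested, 21.3% did not overlap between the groups. Both sums were formed after the values were seen and carry no test.

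Whether Hoxd13 moved apart from its neighbours was examined on the log2 ratio of Hoxd13 to each of them within a library. Hoxd13 was chosen with its fall known, so the differences are read as sizes and the p-values carry no independent support. The log2 ratio to Hoxd3 averaged 3.95 ± 1.31 (SD) over the 4 scramble libraries and 0.92 ± 3.17 over the 4 PERK-deficient libraries, a difference of -3.03 (exact two-sided permutation test over 70 assignments, p = 0.114, adjusted over 3 pairs 0.171). The ratio to Hoxd4 differed by -1.68 (exact permutation p = 0.229, adjusted 0.229) and that to Hoxd8 by -4.75 (exact permutation p = 0.114, adjusted 0.171). All 3 ratios were lower on average in PERK-deficient libraries, and for all 3 the groups overlapped. A difference in response between Hoxd13 and these neighbours was thus not shown. The smallest possible exact permutation p is 0.0286 before adjustment, so a single ratio could not pass alone after adjustment over 3 pairs.

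Genes that flank or interleave the Hoxd cluster give its surroundings. Lnpk, which encodes a shaping protein of the endoplasmic reticulum and starts 88.9 kb upstream of Hoxd13, had 35.4 and 37.9 CPM in scramble and PERK-deficient tumours (log2 difference 0.10, 95% interval -0.15 to 0.35). Mtx2, a mitochondrial import gene that starts 157.5 kb downstream, had 63.9 and 56.7 CPM (-0.17, -0.48 to 0.13). Both intervals exclude a 2-fold change. Evx2, the homeobox gene between Lnpk and Hoxd13, had no count. The antisense transcript Hoxd3os1 had 5.17 and 4.15 CPM (-0.32, -1.19 to 0.55), and the long noncoding RNA Haglr had 0.265 and 0.0755 CPM (-1.74, -5.45 to 1.97). Neither passed the test (edgeR adjusted p 0.703 and 0.598). Without PERK-deficient library 3, the 1 library of its group with Haglr, the fitted difference of Haglr was -6.61 (adjusted p = 0.0805), which depends on the prior count.

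**Figure D2:**
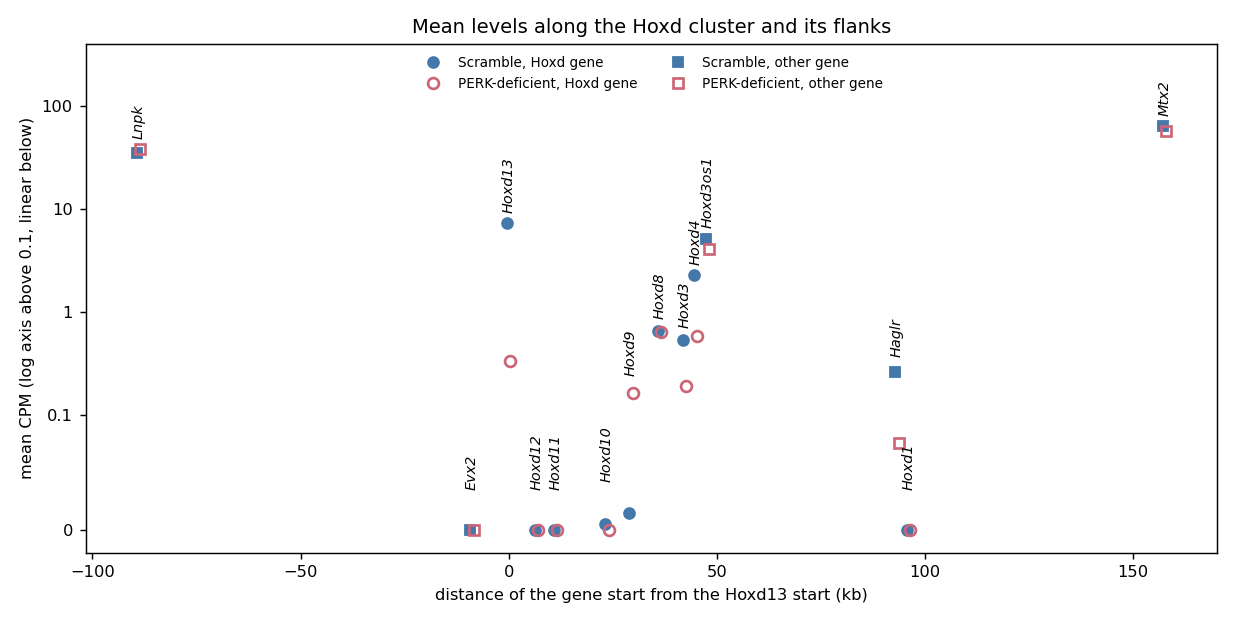
Mean level in CPM (vertical axis, logarithmic above 0.1 and linear below) of Hoxd genes (circles) and of 5 flanking or interleaved genes (squares) against the distance of their start from that of Hoxd13 in kilobases. Filled blue symbols are means of 4 scramble and open red symbols of 4 PERK-deficient libraries. Hoxd13 falls from 7.38 to 0.337 CPM between Evx2, Hoxd12 and Hoxd11 at 0, while Lnpk and Mtx2 are at 35.4 CPM or more in both groups.

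By level per kilobase, Hoxd13 was in scramble tumours the only one of the 9 most abundant Hox genes outside Hoxa. Per kilobase of exon its level was 2.97 ± 0.573 CPM (SD, n = 4), the sixth of all, after Hoxa10 (9.46), Hoxa5 (5.37), Hoxa11 (4.72), Hoxa3 (4.41) and Hoxa7 (3.63). Its range of 2.15–3.44 overlapped those of Hoxa7 (3.15–4.56) and Hoxa6 (1.95–2.89). In PERK-deficient tumours its level per kilobase was 0.136 CPM and below the 15 highest. Hoxd13 gave 4.57–7.69% of the summed Hox CPM in scramble and 0–0.655% in PERK-deficient libraries, and 53.3–73.3% against 0–28.2% of the Hoxd sum. Next after the 9 in scramble tumours came Hoxd4, with 0.776 CPM per kilobase against 0.812 for Hoxa4 and overlapping ranges. In CPM not divided by length, Hoxd4 (2.29) was above Hoxa6 (2.19).

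**Figure D3:**
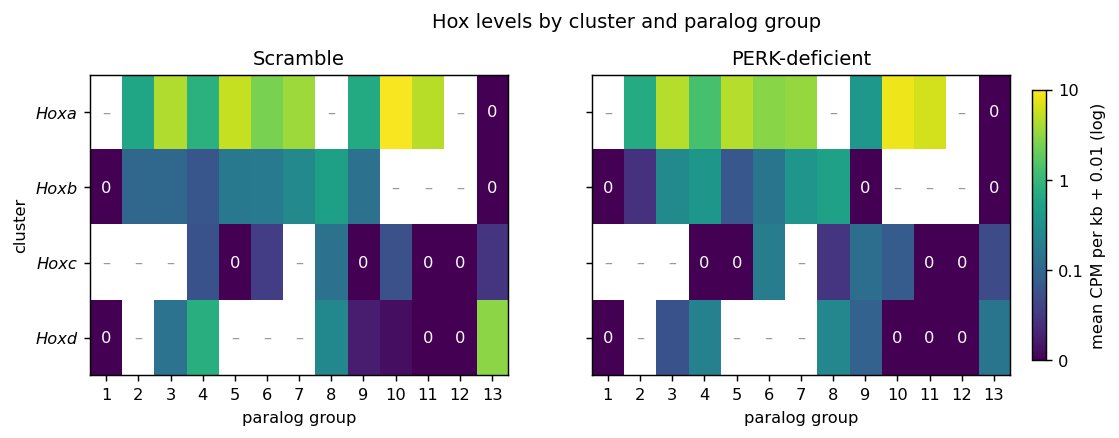
Mean level per kilobase of exon (colour, logarithmic, in CPM per kilobase after adding 0.01) of Hox genes by cluster (rows) and paralogue number (columns), for scramble (left) and PERK-deficient tumours (right), each over 4 libraries. A dash marks a gene that does not exist or is not drawn and 0 a gene without counts. The Hoxa row is bright in both panels, and the Hoxd13 field goes from 2.97 to 0.136 CPM per kilobase.

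Hoxa held most of the Hox signal in both groups. Its 11 genes summed to 107, 101, 106 and 94.7 CPM in scramble and 112, 94.8, 113 and 88.1 CPM in PERK-deficient libraries, and the groups overlapped. Hoxa made up 85.2–90.3% of the summed Hox CPM in scramble and 91.7–94.9% in PERK-deficient libraries. Of the 11 genes 10 were tested and 0 passed (0 at an unadjusted p under 0.05, and 0 by DESeq2 or limma-voom), 4 with log2 differences below 0 and 6 above. For 6 of the 10 the 95% interval lay within a 2-fold change in either direction.

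The anterior Hoxa genes act in the hindbrain, in neural crest and in organs of the throat. Hoxa3, which is needed for the thymus and parathyroid, had 27.1, 26.7, 27.1 and 25 CPM in scramble and 28, 33.3, 32.8 and 16.6 CPM in PERK-deficient libraries (log2 difference 0.06, 95% interval -0.35 to 0.48). This interval excludes a 2-fold change. Hoxa2, which patterns neural crest, had 1.02 ± 0.371 and 1.23 ± 1.23 CPM (0.27, -2.09 to 2.63), and Hoxa4 had 1.29 ± 0.184 and 2.12 ± 0.969 CPM (0.71, -0.44 to 1.87). PERK-deficient library 4 had the lowest value of its group for Hoxa2, Hoxa3 and Hoxa4.

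The central Hoxa genes belong to the trunk. Hoxa5, which is needed for the airways, had 12.6, 9.92, 8.4 and 9.34 CPM in scramble and 13, 7.2, 6.94 and 7.8 CPM in PERK-deficient libraries (log2 difference -0.21, -0.75 to 0.33). Hoxa7 had 13.1, 9.05, 9.47 and 10.2 CPM against 5.96, 10.1, 15.2 and 7.62 CPM (-0.11, -0.71 to 0.50). The Hoxa7 values spread wider among PERK-deficient than among scramble libraries, on both sides. Hoxa6 had 2.19 ± 0.375 and 2.55 ± 0.985 CPM (0.22, -0.73 to 1.16).

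The posterior Hoxa genes include those best known from blood progenitors and leukaemia, Hoxa9 and Hoxa10. Hoxa10 was the most abundant Hox gene per kilobase in both groups, with 30.7, 33.8, 30.7 and 28.4 CPM in scramble and 31.1, 21.8, 27.2 and 28.1 CPM in PERK-deficient libraries (log2 difference -0.19, -0.48 to 0.09, edgeR adjusted p = 0.388). Hoxa9 had 2.75, 3.42, 4.77 and 4.1 CPM against 2.11, 2.76, 2.21 and 1.61 CPM. Its groups overlapped by one value, 2.76 CPM in PERK-deficient library 2, and the log2 difference of -0.79 did not pass (-1.59 to 0.01, edgeR adjusted p = 0.192). Hoxa11, a gene of the forearm and uterus, had 11, 8.77, 13.9 and 9.46 CPM against 18.8, 10.5, 12.1 and 16.1 CPM (0.41, -0.08 to 0.90, adjusted p = 0.279). Hoxa13, the paralogue of Hoxd13 that acts with it in the digits, had no count in any library. Hoxa3, Hoxa7 and Hoxa11 overlap antisense genes over 25.4, 20.4 and 35% of their exonic bases. The libraries keep strand, but the strand setting of the counting is not given.

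**Figure D4:**
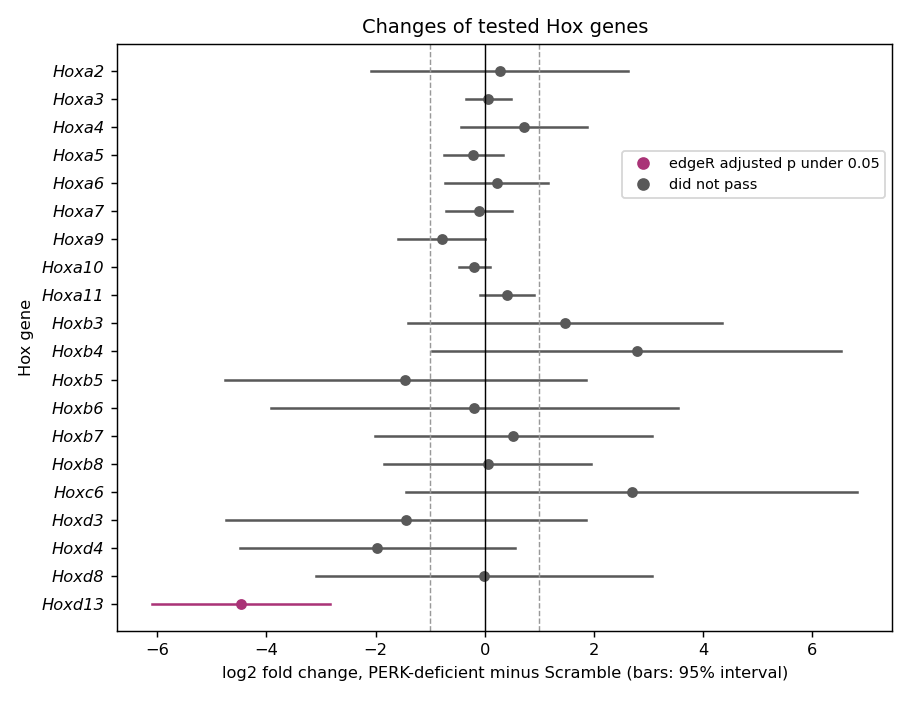
Log2 fold change, PERK-deficient minus scramble (horizontal axis), of 20 tested Hox genes (vertical axis), with 95% intervals from the edgeR fit on 4 against 4 libraries. Dashed lines mark 2-fold changes. Among the genes drawn only Hoxd13 (-4.46) passed the test, most Hoxa intervals are narrow, and those of Hoxb, Hoxc and the other Hoxd genes reach past 2-fold.

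Hoxb genes were low. The cluster summed to 5.49, 3.55, 1.26 and 3.97 CPM in scramble and 3.62, 3.37, 6.39 and 4.5 CPM in PERK-deficient libraries, and these ranges overlapped. Of 10 genes 6 were tested and 0 passed (0 at an unadjusted p under 0.05, and 0 by DESeq2 or limma-voom). Hoxb8, known from myeloid progenitors, had 1.61, 1.49, 0.498 and 1.59 CPM against 0.067, 1.37, 1.14 and 2.81 CPM (log2 difference 0.05, 95% interval -1.84 to 1.94). Hoxb4, known for expanding blood stem cells, had 0.0905, 0.464, 0 and 0 CPM against 1.51, 0, 1.74 and 0.676 CPM (2.79, -0.96 to 6.53, edgeR adjusted p = 0.35). Hoxb3 had 1.38, 0.189, 0 and 0.0387 CPM against 0.77, 1.22, 1.49 and 0.988 CPM (1.47, -1.40 to 4.34, adjusted p = 0.554). Without scramble library 2 the difference of Hoxb3 was 3.81 (adjusted p = 0.154), and without scramble library 3 that of Hoxb4 was 4.86 (adjusted p = 0.226). In Hoxb3 and Hoxb4 the overlap came from scramble library 2 and from PERK-deficient library 2 respectively. Over the exons of Hoxb3, 52.9% of the bases also lie in antisense genes.

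Hoxb5, Hoxb6 and Hoxb7 stayed under 1 CPM in every library, with log2 differences of -1.46, -0.20 and 0.52 and intervals at least as wide as -2.02 to 3.06. Hoxb2 and Hoxb9 were below the filter. Hoxb9 had 29, 0, 1 and 36 counts in scramble and 0 in every PERK-deficient library, and Hoxb2 had 62 counts in scramble and 10 in PERK-deficient libraries. Hoxb1 and Hoxb13 had no count.

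Hoxc genes were the lowest. The 9 genes summed to 0.0433–1.61 CPM in scramble and 0.488–2.3 CPM in PERK-deficient libraries. Hoxc6, a gene of the thorax, was the only one tested, with 0, 0.24, 0 and 0 CPM against 0.502, 0.488, 0.65 and 0 CPM (log2 difference 2.69, 95% interval -1.44 to 6.82, edgeR adjusted p = 0.423). Scramble library 3 alone set that size: without it all scramble values were 0 and the fitted difference was 7.17 (adjusted p = 0.165), which depends on the prior count. Hoxc4, Hoxc8, Hoxc9, Hoxc10 and Hoxc13 had counts below the filter. Hoxc8 had 56, 6, 0 and 16 counts in scramble and 9 in PERK-deficient library 3 alone. Hoxc9 had counts only in PERK-deficient libraries 3 and 4, with 24 and 20. Hoxc13, which drives hair formation, had 10 counts in scramble and 17 in PERK-deficient libraries. Hoxc5, Hoxc11 and Hoxc12 had none.

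The spread between libraries was wider outside Hoxa, where levels were also mostly lower. The median biological coefficient of variation was 30.5% over the tested Hoxa genes, 119% over Hoxb and 117% over Hoxd, against 24.4% over all tested genes. Among the 17 Hox genes that had counts but a mean under 1 CPM, 64 of 136 library values were 0 and 53 were 10 counts or more. A value of 0 in one library thus stood beside values of up to 76 counts in another.

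By position along the clusters, the posterior genes (numbers 9 to 13) summed to 53.3 ± 1.33 CPM (SD over 4 libraries) in scramble and to 44.6 ± 7.01 CPM in PERK-deficient libraries. The central genes (5 to 8) summed to 26.2 ± 5.25 and 24.4 ± 3.4 CPM and the anterior genes (1 to 4) to 37.6 ± 3.01 and 40.6 ± 10.2 CPM. All 3 ranges overlapped between the groups. Of the tested genes 0 of 8 anterior, 0 of 9 central and 1 of 4 posterior passed, against 13.8% of all tested genes. The posterior gene that passed was Hoxd13, whose fall was known beforehand, so these counts carry no result about position. Number 13 summed to 7.43 ± 1.43 and 0.436 ± 0.301 CPM, nearly all of it Hoxd13 in scramble, and number 12 had no count. Over all 39 genes the sum was 117 ± 6.09 and 110 ± 13.7 CPM, and without Hoxd13 it was 110 ± 6.28 and 109 ± 13.7 CPM.

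**Figure D5:**
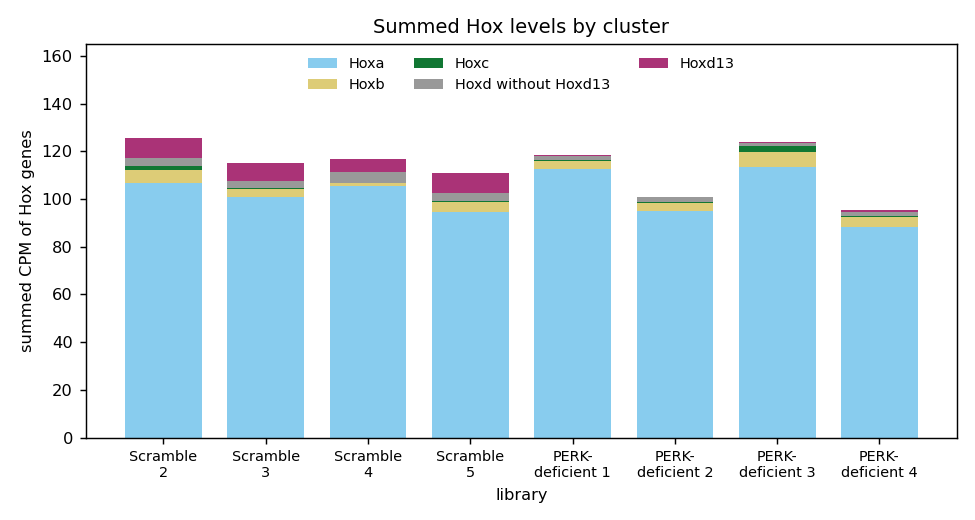
Summed CPM of Hox genes (vertical axis, from 0) in each of the 8 libraries (horizontal axis), divided into Hoxa, Hoxb, Hoxc, Hoxd without Hoxd13, and Hoxd13. Hoxa fills 85.2–90.3% of the scramble and 91.7–94.9% of the PERK-deficient bars, and the Hoxd13 part at the top shrinks from 4.57–7.69% to 0–0.655%.

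The other genes inside the clusters, mostly noncoding, gave few counts. The 4 cluster spans held 46 of them, of which 30 had no count, among them every microRNA gene and Hotair. Of the 10 tested, 0 passed by edgeR, DESeq2 or limma-voom, and 0 had an unadjusted p under 0.05. Over all tested genes 13.8% passed by edgeR and 26.7% had an unadjusted p under 0.05. Each of the 10 had a 95% interval that reached past a 2-fold change, so a change of that size is not excluded. The most abundant of these in Hoxa was Hoxa11os, antisense to Hoxa11, with 2.19 and 1.96 CPM (log2 difference -0.16, 95% interval -2.22 to 1.90). Counts of microRNA genes in these libraries were not taken as a measure of mature microRNAs.

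Of the 36 tested protein-coding genes within 500 kb of a cluster, 7 were higher and 2 lower. Over all genes 13.8% passed. All 9 lay beside Hoxb or Hoxc, which hold 14 and 17 of the tested flanking genes, against 3 beside Hoxa and 2 beside Hoxd. Beside Hoxb, Abi3, Gngt2 and Copz2 rose by 1.55, 1.82 and 0.60 (log2) and Cbx1 fell by 0.42. Beside Hoxc, Nckap1l, Pde1b, Zfp385a and Itga5 rose by 2.60, 1.68, 0.89 and 0.35 and Atp5g2 fell by 0.70. Under the replicate block all 9 lost the call (edgeR adjusted p 0.0685 to 0.384). Abi3, Nckap1l and Zfp385a kept it when each library was left out in turn. The call of the other 6 was lost without at least 1: Cbx1 without any but PERK-deficient library 1 (edgeR adjusted p 0.0644 to 0.1), Gngt2 and Atp5g2 without any scramble library or PERK-deficient library 1 or 4 (0.074 to 0.108 and 0.0637 to 0.133). Itga5 lost it without any scramble library (0.0541 to 0.0967), Pde1b without scramble library 2, 3 or 5 (0.0587 to 0.0722) and Copz2 without scramble library 2 or 3 or PERK-deficient library 1 (0.051 to 0.089).

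Genes that act with or upstream of Hox genes were tested in the same fit. Of 95 listed, 77 were tested, 4 were higher and 8 lower, a share of called genes near the 13.8% over all genes, with a median log2 change of -0.02 in both. The split turned with the scaling, to 5 higher and 3 lower with RLE factors and 6 higher and 3 lower with upper-quartile factors. It also depended on the scramble libraries: without library 2, 3, 4 or 5 the number called was 4, 3, 4 and 5.

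Cyp26b1, the enzyme that degrades retinoic acid, an inducer of Hox genes, was 11, 7.09, 11.1 and 6.04 CPM in scramble and 31.2, 35.3, 26.5 and 26.6 CPM in PERK-deficient libraries. The groups did not overlap, and Cyp26b1 rose by 1.76 (log2, SE 0.21, edgeR adjusted p = 0.000792). Aff1, an elongation factor and common MLL fusion partner, rose by 0.81 (SE 0.13, adjusted p = 0.00257), from 61.6 ± 3.98 to 108 ± 20.6 CPM. Pcgf5, a subunit of a variant Polycomb complex, rose by 0.98 (SE 0.20, adjusted p = 0.00846), from 11.5 ± 1.64 to 22.6 ± 5.72 CPM. These 3 of the 10 named genes that passed kept the call when each library was left out in turn, and under the replicate block Cyp26b1 and Aff1 kept it while Pcgf5 lost it (adjusted p = 0.07).

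The other 7 passed narrowly, and all of them lost the call under the replicate block (edgeR adjusted p 0.0702 to 0.307). In the retinoic acid group, the receptor Rarb fell from 7.68 ± 0.654 to 3 ± 1.35 CPM (log2 -1.36, edgeR adjusted p = 0.0254), a call lost without any scramble library (0.0557 to 0.0826). Among MLL complex genes, the core subunits Wdr5 and Rbbp5 fell by 0.54 and 0.40 (adjusted p 0.0171 and 0.022), calls lost without scramble library 2 or 3 for Wdr5 (0.0618 and 0.0748) and without 2, 3 or 4 for Rbbp5 (0.0536 to 0.0821). Kdm6b, which removes the Polycomb mark from histones, rose by 0.55 (adjusted p = 0.0232), a call lost without any scramble library or PERK-deficient library 2 or 4 (0.0504 to 0.0803). Of the Polycomb subunits, Suz12 fell by 0.27 and Cbx8 by 0.70 (adjusted p 0.0403 and 0.0483). Cbx8 lost the call without any library (0.0502 to 0.166), and Suz12 without any but PERK-deficient library 1 (0.05 to 0.128). Meis2, a partner of Hox proteins on DNA, fell by 0.38 (adjusted p = 0.0404), a call lost without any library but PERK-deficient library 1 (0.0524 to 0.107).

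By list, 1 of 9 tested partners of the Pbx, Meis and Pknox families was lower (median log2 change -0.17), 1 of 12 genes of Polycomb complex 2 was lower (-0.05), and 1 of 18 of Polycomb complex 1 was higher and 1 lower (-0.08). Among 19 MLL and trithorax genes 2 were higher and 4 lower (0.03), and among 10 tested upstream regulators 1 was higher and 1 lower (-0.07). Of 20 listed ParaHox and other homeobox genes, 9 were tested, from the Dlx, Gbx, Meox and Msx families, and none was a ParaHox gene. All 9 had log2 changes above 0 (median 0.72). Of these 0 passed by edgeR, with 1 at an unadjusted p under 0.05 and 1 each by DESeq2 and limma-voom. Dlx6 had 3.46 ± 0.926 and 5.7 ± 2.98 CPM (log2 difference 0.72, adjusted p = 0.28), and Dlx1 1.52 ± 0.551 and 2.12 ± 1.47 CPM (0.48, adjusted p = 0.691, and -0.11 without PERK-deficient library 3).

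Markers of other cell types moved with the groups in which Hoxd13 differed. All 10 leukocyte markers were higher in PERK-deficient libraries, with sums of 39.7–92.6 against 247–915 CPM, and all 8 mast cell markers, with sums of 18.6–159 against 689–3066 CPM. Of 10 markers of glandular epithelium 9 were higher (4.98–9.89 against 95–257 CPM), of 7 tested blood progenitor markers 3 were higher, and of 10 melanocyte markers 6 were lower. Sums for endothelium (35.5–196 and 75.2–275 CPM), for fibroblasts and mural cells (21.1–235 and 64.1–247 CPM), and for keratinocytes (0.103–0.724 and 0–4.68 CPM, with Krt1 at 0) overlapped, and those of skeletal muscle were 1.32–2.77 and 3–53.5 CPM. Of these 4 lists 1 gene passed the test, in fibroblasts and mural cells. The mean melanocyte sums were 24936 and 18780 CPM, while Hoxd13 differed 21.9-fold. The part of these cell types in the Hoxd13 result was not tested.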

How the data were processed

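RNA of 8 bead-enriched fractions was sequenced in strand-specific libraries from 100 ng, in pairs of 105 bases. The deposited raw table holds counts per gene, made by the authors with STAR 2.5.3a and HTSeq 0.6.1 on mm10, per the submitters' processing notes, which also list bcl2fastq and DESeq2 1.30.1. The settings are not given in the sources used here. A table of normalized values was not used. All 55450 identifiers matched GENCODE M21, the source of positions and exonic lengths. Promoters came from RefSeq (GRCm38.p6).

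Counts were filtered by group with filterByExpr (16662 genes left), scaled with TMM factors (0.863 to 1.03) and compared by edgeR 4.0.16 in R 4.3.3, with its quasi-likelihood test (robust, group only) at a Benjamini-Hochberg adjusted p of 0.05 over all tested genes. The common coefficient of variation was 46.3%. CPM are TMM-scaled, log2 ratios of Hoxd13 used a prior count of 2, and ± is the SD. In simulated data with 200 changed genes among 16662, the changed genes were drawn from those with a mean of at least 1 CPM. Of those changed 1.5-, 2-, 4- and 8-fold, 28, 54, 76 and 98% were recovered, and 0.0547% of unchanged genes were called. These recovery rates do not cover the 8 tested Hox genes with a mean under 1 CPM.

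Named were all Hox genes but 1, which is counted in sums and counts but not reported here, up to 4 called genes per list or the 2 most abundant, and tested genes in or within 500 kb of a cluster, of which those called or near Hoxd are written out. Members and lists were chosen with earlier results of these data known. Alternatives were DESeq2 1.42.0, limma-voom (limma 3.58.1), RLE, upper-quartile and total-count scaling, a fit that is not robust, no and a stricter filter (at least 1 CPM in 4 libraries), prior counts of 0.5 and 5, leaving out each library, and a replicate block. No label says whether the 3 replicate numbers that both groups share pair the libraries. Correlations between same-numbered libraries, given below, showed no clear pairing but cannot exclude a shared batch. Python 3.11.15, numpy 2.4.6, pandas 2.3.3 and matplotlib 3.10.9 made tables and plots.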

Additional observations from a re-analysis of the deposited data

Results flagged for a closer look

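Single libraries stood apart from the other 3 of their group, with a gap that is large for the group's range, in 13 of 92 groups of 4 libraries over 46 genes. Chance alone sets about 1 in 20 groups of normally distributed values apart in this way, and the rate for low counts with zeros, as in several of these groups, was not measured. Among Hox genes, scramble library 4 was low for Hoxb6 (0 CPM, the others 0.368–0.434), for Hoxb8 (0.498, the others 1.49–1.61) and for Hoxd8 (0, the others 0.824–0.967). Scramble library 2 was high for Hoxb3 (1.38, the others 0–0.189), scramble library 3 was the only one of its group with Hoxc6 (0.24), and PERK-deficient library 1 was high for Hoxa5 (13, the others 6.94–7.8).

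In the Hoxd cluster, Hoxd3os1 was high in scramble library 2 (5.9 CPM, the others 4.88–4.98) and low in PERK-deficient library 4 (1.33, the others 4.72–5.34), and Haglr had counts in 1 PERK-deficient library, number 3 (0.302). Dlx6 was high in scramble library 5 (4.84, the others 2.84–3.14). Of the genes that flank Hoxb and Hoxc, Cbx1 was high in PERK-deficient library 1 (95.7, the others 67.4–71.5), and Zfp385a (43.3, the others 26.5–29) and Nckap1l (37.8, the others 10.5–14.1) were high in PERK-deficient library 4. Hoxd13 itself had no such library in either group.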

How the results depend on the processing

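Hoxd13 was the 1 Hox gene called under every alternative run except the replicate block, where 0 were (Hoxd13 log2 -5.06, adjusted p = 0.106). The block used the 6 libraries numbered 2, 3 and 4, which share no label beyond the number. Deviations of same-numbered libraries correlated at -0.00906, 0.0982 and -0.204, and 1 of 3 libraries in each group correlated best with its own number. Without each library Hoxd13 ran from -4.98 to -4.03, with 1 Hox gene called each time, and limma-voom gave -5.46. Its ratio differences ran from -3.9 to -1.55 (Hoxd3), -2.98 to -1.14 (Hoxd4) and -6.14 to -3.55 (Hoxd8), with 0 of 3 called. A single ratio could not be called alone after adjustment over 3 pairs.

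Regulators called numbered 2 under the block and 5 in the same 6 libraries unpaired, an alternative chosen after seeing the data, and 3 to 10 without each library. Over all genes the same 3 settings called 199, 1334 and 1078 to 2616, the fewest without a scramble library (1283, 1078, 1428 and 1361 without 2 to 5). The balance of 1277 higher and 1022 lower moved both ways: upper-quartile factors gave 1430 and 653, library totals 1065 and 1169, and limma-voom 1079 and 1153. The cause was not tested. For the 9 Hox genes without counts depth allows levels up to the floor of 3 counts a library, and no table separates depth from the spread between libraries for the 17 with a mean under 1 CPM.

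Log2 signs turned for genes that did not pass. Under the block these were Hoxa2 (-0.40), Hoxa6 (-0.14), Hoxa7 (0.05), Hoxb7 (-0.41) and Hoxd8 (1.20), and in the 6 unpaired libraries Hoxa6 (-0.12), Hoxa7 (0.10) and Hoxd8 (0.67). Under limma-voom they were Hoxa2 (-1.09), Hoxb8 (-0.47) and Hoxd8 (0.14), with library totals Hoxa3 (-0.03) and Hoxb8 (-0.02), and with RLE, upper-quartile or DESeq2 scaling Hoxd8 (0.03 each). Without each library the ranges were -0.62 to 0.68 for Hoxa2, -0.04 to 0.24 for Hoxa3, -0.05 to 0.39 for Hoxa6, -0.41 to 0.07 for Hoxa7, -1.22 to 0.22 for Hoxb6, -0.59 to 0.46 for Hoxb8, -0.58 to 0.41 for Hoxd8 and -0.11 to 0.73 for Dlx1.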

Other observations

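The low values of Hoxb8 and Hoxd8 lay in scramble library 4 and PERK-deficient library 1, which had the least signal of several other cell types. Within the scramble group, library 4 had the lowest sum of 8 endothelial markers (35.5 CPM, the others 173–196), the lowest Hoxb8 (0.498 CPM, the others 1.49–1.61) and no Hoxd8 (the others 0.824–0.967). Within the PERK-deficient group, library 1 had the lowest endothelial sum (75.2 CPM, the others 178–275), the lowest Hoxb8 (0.067 CPM, the others 1.14–2.81) and no Hoxd8 (the others 0.534–1.27). The same libraries also had the lowest sums of their group for leukocytes (39.7 and 247 CPM), mast cells (18.6 and 689 CPM), fibroblasts and mural cells (21.1 and 64.1 CPM) and blood progenitors (68.8 and 87.6 CPM), so the pattern is not particular to endothelium. Both libraries also had the fewest counts of their group (44950033 and 29006949). Hoxd4 went the other way, with its highest value of each group in the same libraries (3.64 and 1.51 CPM). The pattern of Hoxb8 and Hoxd8 was noticed after the values were seen and was not tested.

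Hoxd9 had 27 counts in PERK-deficient library 2 and 3 counts in scramble library 5, and Hoxc9 had 24 and 20 counts in PERK-deficient libraries 3 and 4. Hoxb9 had 29, 1 and 36 counts in scramble libraries 2, 4 and 5 and none in the PERK-deficient group. All 3 are paralogues of Hoxa9, and all 3 were below the filter on low counts, so these values carry no test.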
